A study of Mus musculus with 6 samples.

Results

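Motor proteins carry cargo along microtubules and actin filaments, and this account describes the genes of 3 such families, the kinesins, cytoplasmic dynein with dynactin, and the unconventional myosins, in cultured mouse prostate cancer stem-like cells. Members were chosen by gene symbol alone: kinesins (Kif, Kifc), kinesin light chains (Klc), subunits of cytoplasmic dynein (Dync, Dynl) and dynactin (Dctn), and numbered myosins (Myo). Of 9490 genes with a row in the table, 49 matched, which is 49 of the 92 protein-coding genes with such symbols in the RefSeq gene table. A further 3 rows name several genes (Kifc1 with Kifc5b, and the Dynlt1 copies on the others) and were left out, since their signal cannot be given to 1 gene. Genes of these families without a row, Kif5b among them, were not analysed here.

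The cells came from prostates of TRAMP mice, a transgenic strain in which a viral oncogene, driven by the probasin promoter of prostate epithelium, gives intraepithelial neoplasia, invasive cancer and neuroendocrine tumours. TPIN cells (3 arrays) were obtained from mice 10 to 11 weeks old with intraepithelial neoplasia. TNE cells (3 arrays) were obtained from mice with neuroendocrine tumours, whose age the labels do not give. The cells of all 6 samples carried the transgene and were kept serum-free, with the growth factors EGF and FGF2 added. The labels do not tell whether a group's 3 samples are from different mice or cultures. Replicate numbers were assigned here in the order of the samples, so the same number in both groups marks no link between them. The free-text description names neoplasia for all 6 samples, so the groups follow the titles and cell type labels.

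Kinesins walk along microtubules by hydrolysing ATP, most of them toward the plus end. Some are made mainly in dividing cells, where they build the spindle, move chromosomes and complete cytokinesis, and others carry vesicles, organelles and RNA through the cytoplasm and along axons. Cytoplasmic dynein, with its activator dynactin, is the main motor toward the minus end and serves both division and transport. Unconventional myosins move on actin, tether membranes to the cortex and support protrusions.

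Values are log2 expression as the authors deposited it. Array medians lay between 8.82 and 9.10, and the correlation between arrays was 0.842 to 0.905 among TPIN, 0.825 to 0.917 among TNE and 0.549 to 0.733 across groups. Of 14 prostate epithelial markers, 2 had a row, the keratins Krt8 and Krt18. Neither passed the test, and both had every TNE array below the TPIN arrays, as 20.5% of all genes did. Of 18 neuroendocrine markers 8 had a row: 4 rose in TNE (Uchl1, Syt1, Elavl4 and Snap25) and the other 4 did not pass. Those were Scg5, Ncam1, Pcsk1 and Eno2, with log2 differences of 1.61, 0.04, -0.42 and -0.79. Eno2 had every TNE array below the TPIN arrays. Of 15 fibroblast and smooth muscle markers measured, 11 fell and none rose, and their mean was 11.21 to 11.51 on the TPIN arrays and 7.65 to 8.49 on the TNE arrays. Of 5 endothelial markers 1 rose and 2 fell, and none of 3 leukocyte markers passed. Of the neuronal and glial markers 4 had a row, all of them neuronal, and none passed either (limma adjusted p of 0.0573 to 0.111). All 4 had every TNE array above the TPIN arrays, as 23.3% of all genes did, but 2 of them narrowly. The lowest TNE and highest TPIN arrays were at 6.378 and 6.373 for Nefl and at 9.312 and 9.241 for Map2. The table has no detection call, so no marker can be called absent.

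The calls among motor genes differed between the roles assigned here, though not every role had 1 direction. Of the 49 genes, 13 were higher in TNE (26.5%, against 10.3% of all genes tested) and 2 were lower (4.08%, against 10.2%) at a limma adjusted p below 0.05. All 11 genes sorted as mitotic kinesins with a row were among the 13, and the other 2 were the neuronal kinesins Kif5c and Kif5a. Kif2a, which also works at spindle poles, was sorted with the other kinesins and did not pass (log2 difference 0.02). The 2 lower genes were the neuronal kinesin Kif21b and the class I myosin Myo1d. Among the 38 members other than mitotic kinesins, 2 rose and 2 fell (5.26% each way), and their median log2 difference was 0.04, beside -0.02 over all genes. No gene sorted with the transport kinesins, dynein or dynactin passed. Kif5c and Kif5a, sorted as neuronal, are heavy chains of kinesin-1, which also carries cargo. Leaving out TPIN replicate 1 gave 5 higher and 0 lower, TNE replicate 2 gave 5 and 1, and TPIN replicate 2 gave 14 and 0. In bulk RNA a lower share of cells of a kind and less RNA per cell cannot be told apart, and the same holds for the share of cells in division.

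**Figure D1:**
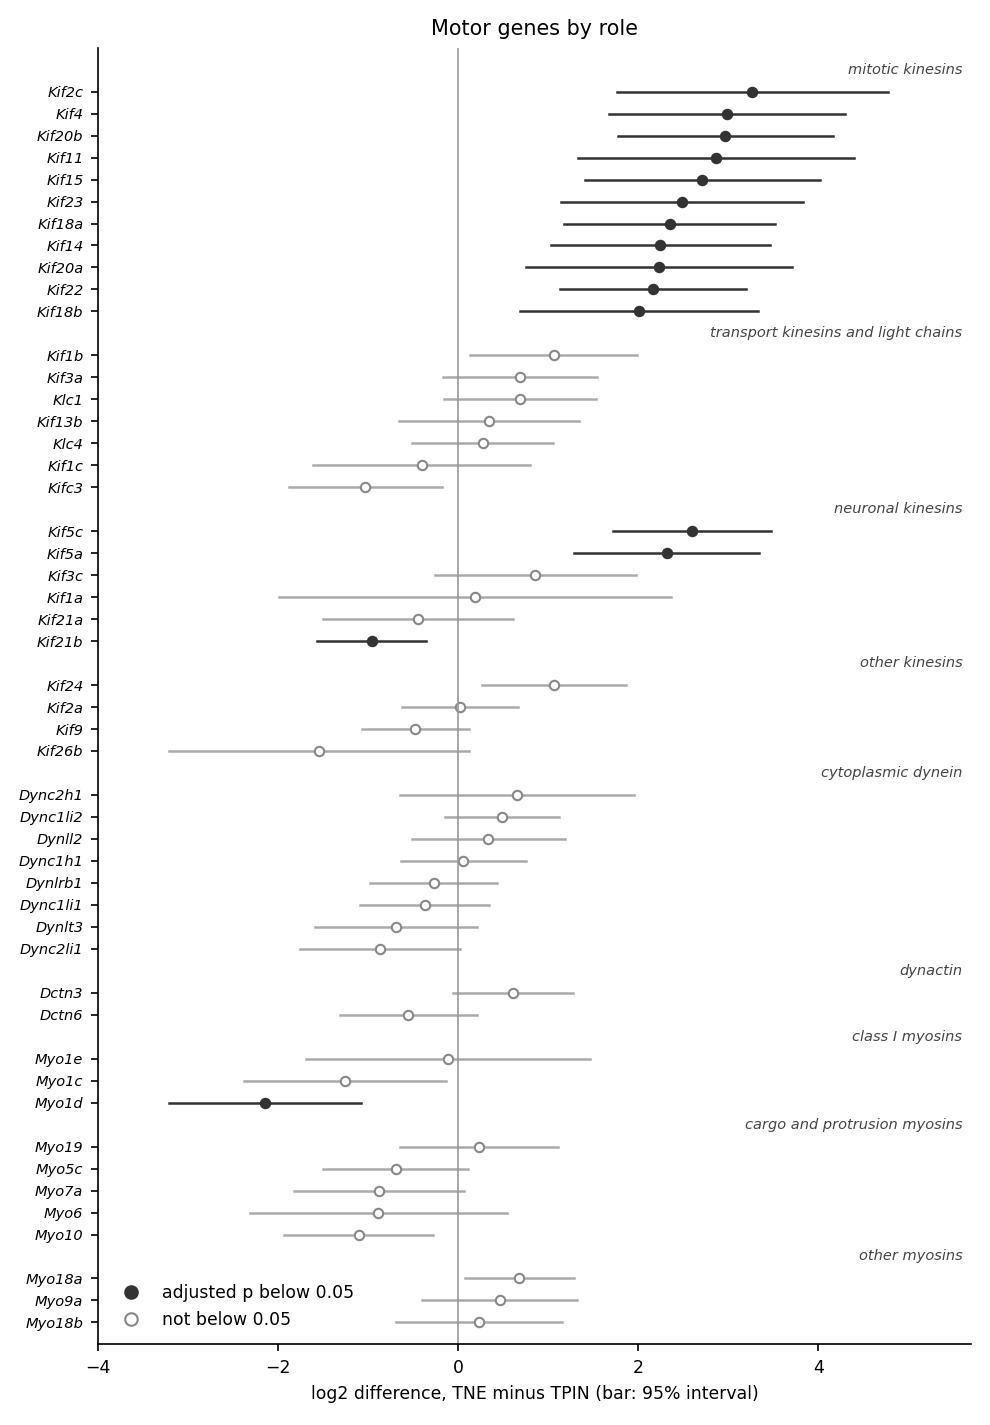
Log2 difference (TNE minus TPIN) of each of the 49 motor genes, ordered within roles, with its 95% interval from limma as a bar; filled points passed the adjusted p of 0.05. The 11 mitotic kinesins lie between 2.01 and 3.27, and among the other roles Kif5c, Kif5a, Kif21b and Myo1d passed.

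Mitotic kinesins were 4.02-fold to 9.64-fold higher in TNE, with a median log2 difference of 2.49. In all 11 the 3 TNE arrays lay above the 3 TPIN arrays, which was so for 23.3% of all genes. In order of replicate, the mean of the 11 was 7.22, 9.08 and 6.99 in TPIN against 10.09, 10.47 and 10.44 in TNE. TPIN replicate 2 was the highest TPIN array for each of the 11 genes, so the spread between replicates was wider in TPIN (SD of the array means 1.15) than in TNE (0.21).

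The smallest p among mitotic kinesins belonged to Kif20b, a motor of late cytokinesis. Its levels were 6.01, 7.89 and 6.46 in TPIN and 9.87, 10.18 and 9.21 in TNE. The log2 difference was 2.97, with an SE of 0.51 and a limma adjusted p of 0.00818. The lowest TNE array stood above the highest TPIN array, which was replicate 2. Kif4, a chromokinesin that works on chromosome arms and at the spindle midzone, was at 6.41, 8.57 and 6.45 in TPIN against 9.96, 10.26 and 10.16 in TNE (log2 difference 2.99 with SE 0.57; limma adjusted p = 0.0112). Kif2c, which does not walk but depolymerises microtubules at centromeres, had the largest difference of the 49 genes. It was at 6.76, 9.42 and 7.14 in TPIN and 10.74, 11.12 and 11.27 in TNE, 9.64-fold higher (SE 0.65 on the log2 scale, limma adjusted p = 0.0133). These 3 kept their calls without any 1 array.

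Kif22, the chromokinesin that pushes chromosome arms outward, was at 7.65, 8.89 and 7.30 in TPIN against 9.73, 10.39 and 10.21 in TNE (limma adjusted p = 0.0151). Kif15, which helps to hold the spindle bipolar, was at 7.01, 8.67 and 6.44 against 9.60, 10.21 and 10.45 (limma adjusted p = 0.0156). Kif18a, which damps the movements of chromosomes at the metaphase plate, was at 6.55, 8.11 and 6.99 against 8.94, 9.42 and 10.35 (limma adjusted p = 0.0172). In each of these 3 genes TPIN replicate 2 came nearest to the TNE arrays, within 1 log2 unit of the lowest of them. All 3 lost their calls without TPIN replicate 1 and without TNE replicate 2, where their differences were 2.01 to 2.65.

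Kif11, the kinesin that slides antiparallel microtubules apart to form a bipolar spindle, was at 7.70, 10.09 and 7.52 in TPIN and 10.99, 11.79 and 11.12 in TNE (7.29-fold, limma adjusted p = 0.0226). Kif23, the motor of centralspindlin, was 5.61-fold higher in TNE and Kif14, which acts with citron kinase in cytokinesis, 4.75-fold. Kif20a, which brings the chromosomal passenger complex to the midzone, was 4.69-fold higher and Kif18b, which limits astral microtubules, 4.02-fold. The last of these were nearest to the threshold: Kif20a had a limma adjusted p of 0.0444 and Kif18b of 0.044. Kif20a lost its call without any 1 array other than TPIN replicate 2, as did Kif18b, which also lost it with array weights (limma adjusted p = 0.051). Kif11 lost it without TPIN replicate 1 or 3 or TNE replicate 2. Kif14 and Kif23 lost it without TPIN replicate 1 or TNE replicate 2 or 3. Leaving out TPIN replicate 1 or TNE replicate 2 left 3 mitotic kinesins past the threshold, TNE replicate 3 left 7 and TPIN replicate 2 left 11, where the median difference was 3.20.

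**Figure D2:**
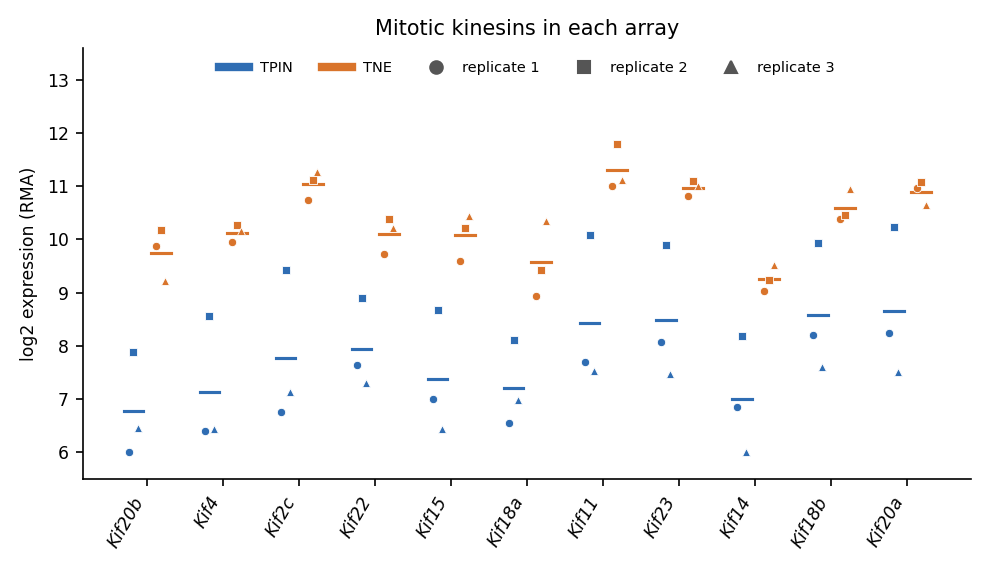
Log2 expression of the 11 mitotic kinesins on each array; blue is TPIN, orange is TNE, marker shape gives the replicate and bars are group means. TPIN replicate 2 (blue squares) is the highest TPIN array for every gene and lies below all 3 TNE arrays.

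Partners of these motors in the spindle and in cytokinesis were higher in TNE as well. Of 24 genes listed, 23 had a row, 20 rose (87.0%, against 10.3% of all genes) and none fell. The median log2 difference was 2.49. The 20 include Mki67 and Top2a, which are genes of dividing cells in general, and the kinesin Cenpe. Cit (citron kinase), Racgap1 (the GTPase-activating partner of Kif23) and Kntc1 (a subunit of the kinetochore complex that recruits dynein) had the smallest p, with log2 differences of 2.94, 2.99 and 3.60 and limma adjusted p of 0.00404, 0.00417 and 0.00543. Cenpe, a kinetochore kinesin whose symbol falls outside the choice of members, averaged 7.57 in TPIN against 9.97 in TNE (limma adjusted p = 0.026), a call lost without TPIN replicate 1 or 3 and without TNE replicate 2 or 3. Aurkb and Plk1, kinases of mitosis, had log2 differences of 2.00 and 1.97 and did not pass (limma adjusted p = 0.0751 and 0.103). TPIN replicate 2 was the highest TPIN array for all 23 genes. Leaving out TPIN replicate 1 cut the count of 20 to 8, TNE replicate 2 to 7 and TNE replicate 3 to 13.

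The sequence around the starts of the mitotic kinesin genes was examined because these genes moved together. A known promoter element of genes expressed late in the cell cycle is the CHR (cell cycle genes homology region), which binds MuvB complexes and often lies a short way downstream of CCAAT boxes bound by NF-Y. RefSeq promoter windows (build GRCm38.p6, 250 bases before to 50 after each start) were found for 38 of the 49 members and for 10 of the 11 mitotic kinesins. The letters searched were TTTGAA for the CHR, CCAAT for the NF-Y box and TTCCCGC for E2F, on both strands. None of these overlaps another in its letters. Other forms of the 3 elements were not searched. Below are the 120 bases before the start for 3 mitotic kinesins with a CHR match near the start, for Kif18a, which has no match to any of the 3 motifs, and for the neuronal Kif5c, which rose but has none either. Sequences read 5′ to 3′ on the strand of the gene, and capitals mark CHR and CCAAT matches. They lie at chr19:37376262-37376381 (plus strand) for Kif11, chr7:127042421-127042540 (minus) for Kif22, chr9:122950961-122951080 (plus) for Kif15, chr2:109280618-109280737 (plus) for Kif18a and chr2:49619166-49619285 (plus) for Kif5c.
Kif11: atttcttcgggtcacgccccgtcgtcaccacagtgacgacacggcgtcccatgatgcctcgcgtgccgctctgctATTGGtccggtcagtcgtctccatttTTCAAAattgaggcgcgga
Kif22: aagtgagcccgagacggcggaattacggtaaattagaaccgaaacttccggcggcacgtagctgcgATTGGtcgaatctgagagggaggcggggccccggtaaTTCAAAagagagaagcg
Kif15: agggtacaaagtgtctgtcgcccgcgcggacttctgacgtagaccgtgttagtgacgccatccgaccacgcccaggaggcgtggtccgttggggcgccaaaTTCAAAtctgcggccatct
Kif18a: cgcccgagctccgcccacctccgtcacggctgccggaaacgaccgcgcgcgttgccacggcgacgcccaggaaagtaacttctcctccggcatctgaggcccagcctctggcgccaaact
Kif5c: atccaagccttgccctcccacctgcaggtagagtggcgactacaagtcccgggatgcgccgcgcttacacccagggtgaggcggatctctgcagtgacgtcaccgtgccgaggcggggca

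In Kif11 the CCAAT match, read on the opposite strand as ATTGG, began 45 bases before the start, and the CHR match, read as TTCAAA, began 19 bases before it. Kif22 had the same order, at 54 and 17 bases, and a second match of each farther upstream. Kif15 had a CHR match 19 bases before the start and no CCAAT. Of the 10 mitotic kinesin windows, 9 held a CHR match, 6 held a CCAAT match and the same 6 held both. Among all 32841 windows these shares were 17.9%, 37.4% and 6.95%, and among the 9608 windows of genes with a row they were 12.6%, 37.6% and 5.03%. The count of windows with both takes no account of order or distance. In Kif14 the CHR match began 228 bases before the start, upstream of its CCAAT match at 92 bases. The only CHR match of Kif2c began 103 bases before the start. In 7 of the 10 windows a CHR match began within 30 bases of the start on either side, against 3.14% of all windows. This distance was chosen after the positions were seen.

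The E2F letters searched, TTCCCGC, were in none of the 10 windows, which does not show that these windows lack other forms of an E2F site. Their share was 4.60% of all windows, 8.17% for genes with a row, 17.1% for all genes that rose in TNE and 4.85% for those that fell. Of the 38 windows of the other members, which belong to 28 genes, 3 held a CHR match (7.89%), in Kif1a, Kif26b and Myo18a. None of these 3 genes passed the test between the groups. Among the spindle and cytokinesis partners 17 of 20 windows, from 14 of 17 genes, held a CHR match. The share was 19.2% over the windows of all genes that rose in TNE and 13% over those that fell. Some genes have several windows that overlap, and a match to 5 to 7 letters is a description of the sequence and does not show binding.

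**Figure D3:**
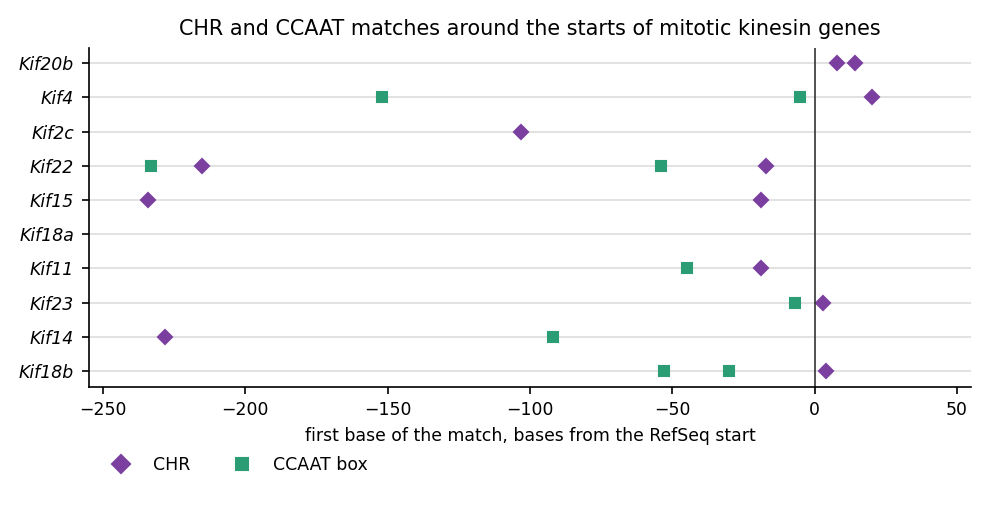
Positions of CHR (purple diamonds) and CCAAT (green squares) matches on either strand for the 10 mitotic kinesin genes with a window; the x axis is the distance in bases of the first base of the match from the RefSeq start, and the vertical line is the start. Kif18a has no match, and 7 genes have a CHR match within 30 bases of the start.

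Neuronal kinesins did not share 1 direction. Of 6 with a row 2 rose (33.3%, against 10.3% of all genes), 1 fell (16.7%, against 10.2%) and 3 did not pass. Kif5c and Kif5a, the heavy chains of kinesin-1 found mainly in neurons, rose together. Kif5c was at 7.88, 7.28 and 6.81 in TPIN and 9.63, 9.68 and 10.46 in TNE, 6.07-fold higher, and had the smallest p of the 49 genes (SE 0.38 on the log2 scale, limma adjusted p = 0.00454). Kif5a was at 7.75, 7.06 and 6.87 against 8.87, 9.36 and 10.39, 4.97-fold higher (SE 0.44, limma adjusted p = 0.0116). In both genes the groups were separated by over 1 log2 unit, TPIN replicate 1 was the highest TPIN array and TNE replicate 3 the highest TNE array. Both kept their calls without any 1 array and under the other settings tried.

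The array order of Kif5a and Kif5c in TPIN differs from that of the mitotic kinesins, for which TPIN replicate 2 was the highest. The mean of the 8 neuroendocrine markers was, in order of replicate, 8.45, 7.61 and 7.72 in TPIN against 8.69, 9.48 and 10.11 in TNE, with 4 of 8 higher in TNE. Of 12 neuronal and glial markers listed, the 4 with a row (Stmn2, Tubb3, Map2 and Nefl) are all neuronal and had a median log2 difference of 1.70. Their mean was 6.62, 6.50 and 7.04 in TPIN against 7.61, 8.77 and 8.96 in TNE. The lists below hold the same genes again, Tubb3 with the tubulins and the others with the neuronal microtubule proteins. The part of neuroendocrine differentiation, or of another cell type, in the rise of Kif5a and Kif5c was not tested.

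Kif21b, which slows microtubule growth in neurons and lymphocytes, was at 8.41, 8.59 and 8.45 in TPIN and 7.42, 7.35 and 7.80 in TNE. Each group was tight (SD 0.10 and 0.24), all 3 TNE arrays were below the TPIN arrays, and the difference was -0.96 (SE 0.26, limma adjusted p = 0.0395). The call was lost when the arrays were quantile-normalized again (limma adjusted p = 0.0517) or centred on their medians (0.0531), and without 4 of the 6 arrays in turn, TPIN replicate 1 or 2 or TNE replicate 1 or 2. Its relative Kif21a, at 7.87 ± 0.60 in TPIN against 7.43 ± 0.73 in TNE, did not pass. Kif1a, which carries synaptic vesicle precursors and dense-core vesicles, ranged over 7.31 to 11.46 in TPIN, with replicate 1 highest and replicate 2 lowest, and over 9.19 to 10.47 in TNE. With an SD of 2.09 in TPIN its log2 difference of 0.18 had a 95% interval of -1.99 to 2.36, too wide to give a direction. Kif3c, a subunit of kinesin-2 in neurons, was at 8.44, 8.42 and 9.05 in TPIN and 8.41, 10.16 and 9.90 in TNE. It did not pass with all arrays (limma adjusted p = 0.222) and passed without TNE replicate 1 (limma adjusted p = 0.0357).

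None of the 7 transport kinesins and light chains passed, where 20.5% of all genes did in either direction. Their median log2 difference was 0.34, which leaving out TPIN replicate 2 moved to 0.088, and TPIN replicate 3 or TNE replicate 2 to 0.60. Kifc3, a minus-end motor found at epithelial junctions, was at 10.16, 9.13 and 8.97 in TPIN and 8.50, 8.19 and 8.49 in TNE, a difference of -1.03 (limma adjusted p = 0.0793). Kif1b, which carries mitochondria and synaptic vesicle precursors, was at 9.69, 8.97 and 10.13 against 10.17, 10.64 and 11.18, a difference of 1.06 (limma adjusted p = 0.092). In both of these genes the groups did not overlap, in opposite directions. Over all genes, 23.3% had every TNE array above the TPIN arrays and 20.5% had every one below. Klc1, a light chain that links kinesin-1 to cargo, had 10.75 ± 0.15 in TPIN and 11.44 ± 0.65 in TNE, and Klc4 had 7.96 ± 0.57 and 8.24 ± 0.11. Kif3a, the kinesin-2 subunit needed to build cilia, had 8.73 ± 0.67 and 9.41 ± 0.14, and it passed without TPIN replicate 3 (limma adjusted p = 0.033). Kif13b and Kif1c, both vesicle motors, had log2 differences of 0.34 and -0.40. The intervals do not show equal levels: that of Kif1c ran from -1.61 to 0.80 and that of Kif13b from -0.66 to 1.35.

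Of 4 other kinesins none passed, where 20.5% of all genes did in either direction. Kif24, a centriole kinesin that restrains cilium assembly, was at 7.04, 7.98 and 6.89 in TPIN and 8.36, 8.35 and 8.39 in TNE, a difference of 1.06 (limma adjusted p = 0.062). Its groups did not overlap and, as for the mitotic kinesins, TPIN replicate 2 was highest in TPIN. It passed without TPIN replicate 2 (limma adjusted p = 0.0285) and when the arrays were quantile-normalized again (0.0465). Kif2a depolymerises microtubules as Kif2c does, at spindle poles and in neurons. Kif2a had 10.52 ± 0.11 in TPIN and 10.54 ± 0.32 in TNE, a difference of 0.02 with a 95% interval of -0.62 to 0.67, where that of Kif2c was 1.76 to 4.78. Kif26b, a kinesin of Wnt5a and Ror signalling without known motility, was at 8.57, 10.67 and 9.68 against 7.62, 7.14 and 9.52. Its groups overlapped through TNE replicate 3, and without that array it passed (log2 difference -2.26, limma adjusted p = 0.0486). Kif9, a kinesin of motile cilia, had 7.06 ± 0.23 and 6.59 ± 0.04 and did not pass.

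**Figure D4:**
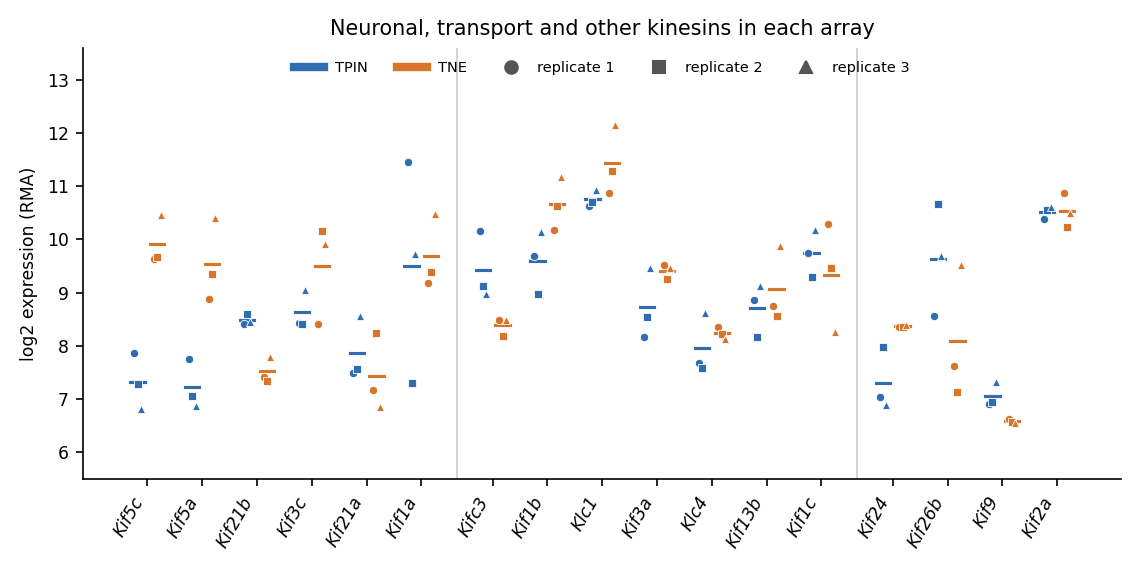
Log2 expression of neuronal (left), transport (middle) and other (right) kinesins on each array; blue is TPIN, orange is TNE, marker shape gives the replicate and bars are group means. Kif5c and Kif5a are higher and Kif21b lower in TNE with no overlap, and Kif1a spans 7.31 to 11.46 within TPIN.

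Cargo adaptors of these kinesins passed at shares near those of all genes tested (10.3% higher, 10.2% lower). Of 12 cargo adaptors 1 rose and 1 fell, 8.33% each way: Madd, an adaptor of Kif1a and Kif1b for vesicles, had a log2 difference of 1.99 (limma adjusted p = 0.0128) and Fez2, a kinesin-1 adaptor, of -1.43 (0.0223). Without TNE replicate 2 neither passed, and the fall of Fez2 was also lost without TPIN replicate 1 or 2 or TNE replicate 3. The list had 2 rises without TNE replicate 1. Mapk8ip1, a scaffold that binds kinesin light chain, was at 8.87 and 9.94 and did not pass (limma adjusted p = 0.0711). Of 11 tubulins 1 rose (9.09%, against 10.3% of all genes) and none fell, against 10.2%. The rise was that of Tube1, the centriolar epsilon-tubulin (log2 difference 2.77, limma adjusted p = 0.0185), a call lost without TPIN replicate 1. The count of rises was 2 without TNE replicate 1. Tubb3 and Tuba1a had differences of 1.06 and 0.75 and did not pass.

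A list of neuronal microtubule proteins had 16 genes with a row, some of them also made in other cells. Of these 3 rose (18.8%, against 10.3% of all genes) and 1 fell (6.25%, against 10.2%). So 4 of 16 passed where 20.5% of all genes did in either direction. Stmn1, which sequesters tubulin and is also made in dividing cells, rose by 3.47 on the log2 scale (limma adjusted p = 0.00328). Dclk2, a doublecortin-like kinase, rose by 2.72 (0.00575) and Map7, a recruiter of kinesin-1, by 1.14 (0.0331). The fall was that of Map4, the main microtubule-associated protein of cells other than neurons (-1.28, limma adjusted p = 0.0472). Map2, Stmn2, Nefl and Nefm had differences of 2.59, 0.91, 2.34 and 1.91 and Map1a of -1.21, and none of them passed. In the whole list 10 differences were positive and 6 negative. Map7 lost its call without TPIN replicate 1 or 2 or TNE replicate 1 or 2, and Map4 without TPIN replicate 1 or 2 or TNE replicate 2 or 3. The list had 2 rises without TPIN replicate 1 or 2 or TNE replicate 2, and 2 falls without TNE replicate 1. The axonemal dyneins Dnal1 and Dnah10, the only ones of 28 listed with a row, did not pass.

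Cytoplasmic dynein and dynactin gave no call in 10 genes, where 20.5% of all genes passed in either direction. Median log2 differences were -0.11 for the 8 dynein genes and 0.03 for the 2 dynactin genes, and the dynein median changed sign (0.076) when the arrays were quantile-normalized again. The dynactin median changed sign without TNE replicate 1 (-0.035) and without TPIN replicate 2 (-0.024). Dync1h1, the heavy chain that holds the motor, was at 11.41, 11.08 and 11.45 in TPIN and 11.36, 10.99 and 11.76 in TNE, a difference of 0.06 with a 95% interval of -0.64 to 0.75. TNE held both the lowest array, replicate 2, and the highest, replicate 3, so the groups overlapped. Dync2li1, a light intermediate chain of the dynein that works inside cilia, had the smallest p of the family: 8.06, 8.22 and 9.27 against 8.00, 7.50 and 7.44 (log2 difference -0.87, limma adjusted p = 0.135). The heavy chain of the same ciliary motor, Dync2h1, had a difference of the other sign, 0.65, with groups that overlapped (8.51 ± 0.98 and 9.16 ± 0.74).

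The light intermediate chains of the transport motor also differed in sign, at 0.49 for Dync1li2, with all 3 TNE arrays above TPIN, and -0.37 for Dync1li1, with overlap. The light chains Dynlt3, Dynlrb1 and Dynll2, which link dynein to cargo, had differences of -0.69, -0.27 and 0.34. Dynlrb1 was at 12.53, 12.43 and 11.74 in TPIN and 11.81, 12.10 and 11.97 in TNE. Dctn3, a shoulder subunit of dynactin, was at 9.20, 9.24 and 9.74 in TPIN and 9.75, 10.22 and 10.04 in TNE, and Dctn6, a subunit of its pointed end, at 11.50, 11.12 and 10.90 against 11.12, 10.43 and 10.30. The Dctn3 groups were separated by a margin far below their spread, and those of Dctn6 overlapped. Of 13 dynein adaptors and regulators 1 rose (7.69%, against 10.3% of all genes). It was Spdl1, a mitotic adaptor that the spindle list holds too (log2 difference 1.0, limma adjusted p = 0.0322). Spdl1 lost its call without any 1 array other than TPIN replicate 3, where the list had 2 rises. Pafah1b1 (Lis1), which activates dynein, had a difference of 0.86, and the microtubule plus-end protein Mapre1 of 0.64, and neither passed.

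Myosins as a family had a median log2 difference of -0.69, and 1 of 11 was called lower, 9.09% against 10.2% of all genes. The median was -0.21 without TNE replicate 3 and -0.35 with array weights. Myo1d, a class I myosin that links membranes to actin, was at 10.59, 10.54 and 9.40 in TPIN and 8.50, 8.33 and 7.26 in TNE, 4.42-fold lower (SE 0.46 on the log2 scale, limma adjusted p = 0.0172). Replicate 3 was the lowest array in each group, and the groups did not overlap. The call was lost without TPIN replicate 1 (limma adjusted p = 0.0677) and without TPIN replicate 2 (0.0605). Myo1c, which tethers vesicles at the cortex, was at 10.68, 10.94 and 11.00 against 10.38, 10.00 and 8.49, separated between the groups but not called (limma adjusted p = 0.0976). Myo1e, a myosin of endocytosis, ranged over 8.48 to 10.86 in TPIN and 8.51 to 10.45 in TNE.

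Among the myosins of cargo and protrusions, Myo10, which extends filopodia, was at 10.58, 10.40 and 10.26 in TPIN and 10.01, 9.07 and 8.85 in TNE. Its difference of -1.11 did not pass (limma adjusted p = 0.0618) and passed without TNE replicate 1 (0.0221) or with the arrays centred on their medians (0.0488). Myo7a, known for its part in hair cell stereocilia, had 9.05 ± 0.72 and 8.17 ± 0.35, and Myo5c, of secretory granules, 7.12 ± 0.61 and 6.42 ± 0.09. Myo6, which moves toward the pointed end of actin, had 8.75 ± 0.63 in TPIN and 7.87 ± 1.22 in TNE, where replicate 3 was lowest at 6.51. Myo19, the motor on mitochondria, had a difference of 0.23. The other 3 myosins were slightly higher in TNE and did not pass: Myo18a, a Golgi-linked myosin, was at 8.48, 8.09 and 8.48 against 9.04, 9.13 and 8.92 (limma adjusted p = 0.0981). Myo9a and Myo18b, the latter of striated muscle, had differences of 0.46 and 0.23.

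**Figure D5:**
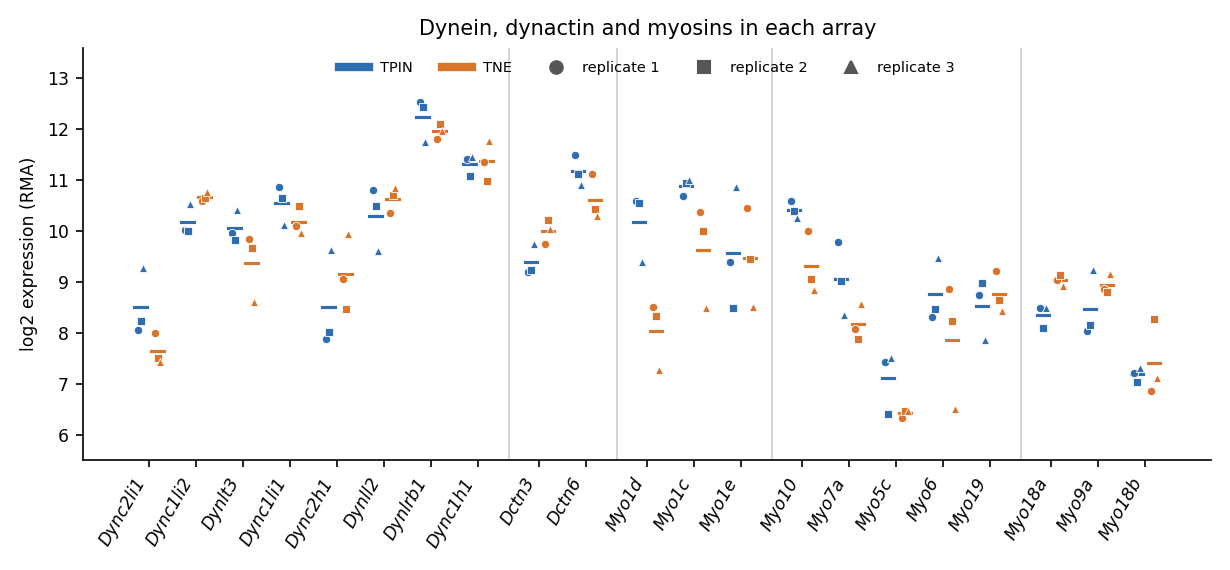
Log2 expression of cytoplasmic dynein, dynactin and the 3 groups of myosins (left to right, divided by grey lines) on each array; blue is TPIN, orange is TNE, marker shape gives the replicate and bars are group means. Myo1d is the only gene shown that passed, with 7.26 to 8.50 in TNE and 9.40 to 10.59 in TPIN.

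Of 14 genes of myosin II and its actin partners 3 fell (21.4%, against 10.2% of all genes) and none rose, with a median log2 difference of -0.87. The falls were those of Tpm2 (tropomyosin, -2.35, limma adjusted p = 0.00179), Acta2 (smooth muscle actin, -3.99, 0.00401) and Myl9 (a regulatory light chain, -2.77, 0.0324). Leaving out TNE replicate 1 gave 5 falls, and TPIN replicate 1 or 2 or TNE replicate 2 or 3 gave 2, the 4 arrays without which Myl9 lost its call. The nonmuscle heavy chains Myh9 and Myh10 had differences of -0.70 and 1.24 and did not pass. Of 9 myosin adaptors and cargo genes 1 fell, a share of 11.1% that is near the 10.2% of all genes: Dab2, an endocytic adaptor of Myo6 (-4.71, limma adjusted p = 0.00219), from 11.33 in TPIN to 6.63 in TNE. Without TPIN replicate 3 this list had 2 falls and 1 rise. The fibroblast and smooth muscle markers, among them Acta2, were at a mean of 11.21 to 11.51 in TPIN and 7.65 to 8.49 in TNE, with 11 of 15 lower, and their part in the lower Myo1d and contractile genes was not tested.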

How the data were processed

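The authors deposited log2 expression values that RMA produced, per the submitters' processing notes, from biotin-labelled cDNA of total RNA. RMA corrects background and brings arrays to a shared distribution, which narrows differences near background. The table has 10361 rows, from 2.87 to 14.1, and holds part of the array; the RMA version, the genome build and the rule for choosing rows were not given in the sources used here. Precision is limited by the 6 arrays, and p-values refer to the spread among these samples, which can be technical.

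Gene names came from the platform annotation: 9496 rows had 1 symbol, 374 several and 491 none. The row with the highest mean was kept per gene. TNE was compared with TPIN in limma 3.58.1 (R 4.3.3), fitted to all 9490 genes with empirical Bayes moderation, two-sided, with Benjamini-Hochberg adjustment over all of them and a threshold of 0.05. No filter was set, and no member had a mean under 6 in both groups. Fold is 2 to the power of the log2 difference on the RMA scale, SE is the moderated standard error, ± is the SD over 3 arrays, and 95% intervals are not adjusted.

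Members, roles, gene lists and motifs were chosen with earlier results of these data known, so lists are described by counts and medians, without set tests. Values on each array are given for up to 6 called members of a role by p, for the member with the smallest p where none was called and for the member with the highest mean; further members were added after their values were seen. Of each related list up to 3 genes with the smallest p are named, and others after their values were seen. Promoter sequences are from RefSeq (GRCm38.p6), matched by Entrez identifier, and 1 promoter is not reported. The limma step was tested on simulated data.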

Additional observations from a re-analysis of the deposited data

How the results depend on the processing

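Across 12 alternatives, none of the 15 called members changed direction, and 5 (Kif20b, Kif4, Kif2c, Kif5a and Kif5c) kept their calls in all 12; the other 10 lost theirs without at least 1 array, where fewer samples were fitted. Of the 34 members not called, 10 passed in at least 1 alternative. Leaving out 1 array put the number of members higher in TNE between 5 and 14 and the number lower between 0 and 3. With array weights 16 were higher and 6 lower, with 4267 genes called in all against 1941, and with the arrays quantile-normalized again 1 was lower; the cause was not tested. The median log2 difference of mitotic kinesins stayed between 2.00 and 3.20. Medians that moved by more than the spread between arrays were those of the cargo and protrusion myosins (-0.44 with array weights, -1.03 to -0.53 without 1 array), the other myosins (0.73 with array weights, 0.24 to 0.75 without 1 array) and cytoplasmic dynein (0.076 when quantile-normalized again, -0.25 to -0.010 without 1 array). Testing all rows, leaving out dim rows and a trended robust prior changed no member's call. No paired analysis was possible because the labels give the samples no shared replicate numbers. The arrays have no background measure, so the limit of detection of dim genes is unknown.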
